A study of Homo sapiens with 10 samples.

Results

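Transcript levels of 8 genes of the caspase system were examined in bulk RNA sequencing of human blood cancer cell lines. They were the caspase genes CASP2, CASP6, CASP8, CASP9 and CASP10 and the inhibitor genes XIAP, BIRC3 and CFLAR, taken by symbol from a table of 20591 genes, and all 8 were found. Of the 10 libraries, 6 came from in vitro mixtures of the lines HL60, K562, SUDHL4 and THP1 and 4 from the pure lines, 1 library per group. All cells were wild type, untreated and collected at day 0 from RPMI medium with 10% serum. HL60 is a promyelocytic line from an acute myeloid leukaemia, K562 derives from chronic myeloid leukaemia at its blast stage and has erythroid features, SUDHL4 from a large-cell lymphoma of B cells, and THP1 from a monocytic acute leukaemia. The submitters made the pools to hold the lines at varied ratios, as material for deconvolution, but the ratios themselves are not in the labels. The labels name a low-input stranded total RNA kit and a stranded mRNA kit without saying which library was made with which. With 1 library per group there was no spread between replicates to measure, so no p-value is given, and every interval covers counting error only.

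Caspases are cysteine proteases that are made as inactive precursors. Initiator caspases are switched on in large complexes: CASP8 and CASP10 at death receptors of the tumour necrosis factor family, CASP9 on the apoptosome after cytochrome c has left the mitochondria, and CASP2 on the PIDDosome. They cleave executioner caspases, to which CASP6 belongs, and the executioners cut the proteins whose loss takes the cell apart. CFLAR encodes c-FLIP, a relative of CASP8 without protease activity that acts at the death receptor complex, XIAP binds and blocks CASP9 and the executioners, and BIRC3 encodes the ubiquitin ligase cIAP2, which acts in tumour necrosis factor receptor signalling. In leukaemia and lymphoma cells, the amounts of these proteins are studied as determinants of the response to death ligands and to drugs.

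BIRC3 and CFLAR are known target genes of the transcription factor NF-kappaB, and the starts of these genes are shown because BIRC3 had the widest spread between lines of the 8 genes and CFLAR an order of lines unlike it. Each window is the RefSeq sequence of GRCh38.p14 from 250 bases before to 50 bases after an annotated gene start, 5′ to 3′ on the gene's strand, and capitals mark matches to the 10-letter consensus of NF-kappaB sites (the kB motif), sought on both strands. The BIRC3 window lies at chr11:102317234-102317533 on the plus strand and the first CFLAR window at chr2:201118466-201118765 on the plus strand.
BIRC3: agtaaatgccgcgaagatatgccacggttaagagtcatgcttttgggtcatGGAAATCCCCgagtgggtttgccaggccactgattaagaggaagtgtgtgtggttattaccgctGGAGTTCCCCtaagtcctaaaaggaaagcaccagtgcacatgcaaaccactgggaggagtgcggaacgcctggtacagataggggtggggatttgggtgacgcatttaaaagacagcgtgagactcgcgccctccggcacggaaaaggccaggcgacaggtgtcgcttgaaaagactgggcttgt
CFLAR: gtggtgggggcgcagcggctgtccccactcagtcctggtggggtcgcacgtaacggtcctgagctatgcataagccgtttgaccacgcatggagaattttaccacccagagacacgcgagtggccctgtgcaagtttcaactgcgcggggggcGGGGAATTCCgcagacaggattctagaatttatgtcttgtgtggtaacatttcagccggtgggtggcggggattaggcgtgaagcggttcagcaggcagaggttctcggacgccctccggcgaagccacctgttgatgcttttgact
The BIRC3 window held 2 matches, at bases -199 to -190 and -135 to -126 from the start, which do not overlap each other. The first CFLAR window held 1, at bases -97 to -88. CFLAR windows 2, 3 and 4, at its other annotated starts, held 0 matches. Of 35116 such windows in the RefSeq table, 11.3% held at least 1 match and 2.04% held 2 or more. RefSeq windows were matched for 7 of the 8 genes, 16 windows in all, and 3 of these held a match, the remaining one being the second CASP2 window. A match describes letters in a window and says nothing of binding in these cells.

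Levels are in normalised CPM, the deposited values, which follow counts per 1000000 reads after a rescaling between libraries. The depth was between 24985570 reads (mixture 5) and 36607612 reads (mixture 1), and 3 reads, the limit set for a gene with none, stood for 0.0955 to 0.139 normalised CPM. The markers listed for K562, SUDHL4 and THP1 were each highest in their own line, 5 of 5 in every list. For HL60 it was 2 of 5, MPO and CEBPE, while ELANE, AZU1 and PRTN3 were higher in THP1. The 4 T and NK cell genes summed to between 5.09 in SUDHL4 and 45.1 in THP1, where NKG7 made up 44.9. The 3 stroma genes summed to between 0 in HL60 and 69.9 in SUDHL4, where DCN made up 69.7, and the part of these genes in the results was not tested.

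**Figure D1:**
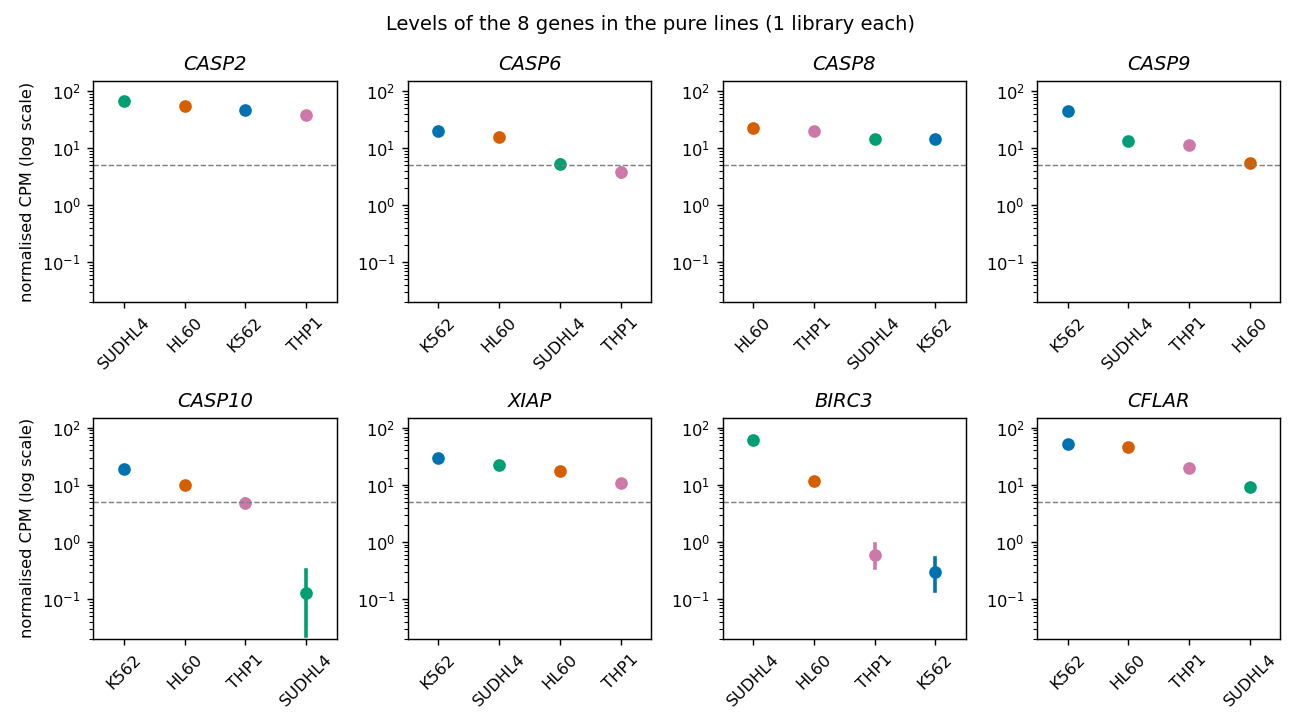
Level of the 8 caspase and inhibitor genes in the 4 pure lines (normalised CPM, logarithmic axis, 1 panel per gene, lines ordered by level). Points are single libraries, error bars exact 95% Poisson intervals of the reads and the dashed line the minimum level of 5. BIRC3 stands at 62.1 in SUDHL4 and under 1 in THP1 and K562, whereas CASP2 and CASP8 differ by less than 2-fold between any lines.

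The sharpest differences between the lines lay in BIRC3 and CASP10, which were opposite in the B-cell lymphoma line: BIRC3 was highest in SUDHL4 and CASP10 almost without reads there. K562 had the highest level of 5 of the 8 genes, CASP6, CASP9, CASP10, XIAP and CFLAR. SUDHL4 was highest for CASP2 and BIRC3 and HL60 for CASP8, and THP1 for none, although THP1 passed HL60 for CASP8 when libraries were scaled by the median ratio over all genes or by a housekeeping list. A gene was called different between a pair of lines where log2(value + 1) differed by at least 1, which is 2-fold, and either line had at least 5 normalised CPM. Of 48 comparisons (8 genes, 6 pairs of lines), 22 passed. Among all genes with at least 5 in either line, 37.5% to 46.9% passed per pair, so this count was near the share over all genes.

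Among the death receptor initiators, CASP8 varied little. Its level was 22.6 in HL60, 19.9 in THP1, 14.4 in SUDHL4 and 14.4 in K562, and none of the 6 pairs passed the 2-fold call. HL60 exceeded K562 by 1.57-fold (95% interval 1.40 to 1.77), a log2 difference of 0.62 that came to 0.45 with total reads and 0.26 with the housekeeping list, whereas SUDHL4 and K562 could not be told apart in counting (1.00-fold, 0.876 to 1.14). Fold changes with intervals are computed from reads, without the 0.5 read that every deposited value above 0 carries, and so differ from the quotient of 2 printed levels for genes with few reads.

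CASP10, the close relative of CASP8 that humans have beside it, had a different order. It was at 18.7 in K562, 9.94 in HL60, 4.75 in THP1 and 0.129 in SUDHL4, the last from 3 reads. K562 exceeded SUDHL4 by 170-fold (57.9 to 826) and THP1 by a log2 difference of 1.78. HL60 minus K562 was -0.85 on the log2 scale, which passed the call only with total reads (-1.02) and with the housekeeping list (-1.19). Mixture 4, for which the largest share of SUDHL4 was estimated, had the lowest CASP10 level of the mixtures, 2.00.

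CASP9, the caspase of the mitochondrial route, was high in K562 alone. Its level was 44.3 in K562, 13.3 in SUDHL4, 11.5 in THP1 and 5.41 in HL60. K562 passed the 2-fold call against each of the other 3 lines and exceeded HL60 by 8.21-fold (6.98 to 9.72). SUDHL4 and THP1 did not differ beyond counting error (1.16-fold, 0.999 to 1.34), and HL60 was lower than SUDHL4 by a log2 difference of -1.16. HL60 minus THP1 was -0.96, short of the call with the deposited scaling and past it with each of the other 3.

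CASP2, the PIDDosome caspase, was the most even of the initiators beside CASP8. It stood at 67.9 in SUDHL4, 55.4 in HL60, 47.4 in K562 and 38.2 in THP1, and 0 of 6 pairs passed the call. All neighbours in this order were apart in counting, and SUDHL4 exceeded THP1 by 1.78-fold (1.65 to 1.91). The step between HL60 and K562 turned round under the housekeeping scaling.

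CASP6, the executioner among the 5 caspases, split the lines into a higher and a lower pair. It was at 19.7 in K562 and 15.7 in HL60, against 5.31 in SUDHL4 and 3.83 in THP1. Each higher line passed the call against each lower one, which made 4 of 6 pairs, and K562 exceeded THP1 by 5.16-fold (4.26 to 6.29). The end of CASP6 overlaps MCUB on the opposite strand, a gene at 182.9 in SUDHL4 and at 4.48 to 7.19 in the other 3 lines. No source used here says whether reads were assigned by strand, so the 2 genes may share reads, and in SUDHL4 the CASP6 level may include some of MCUB. No other of the 8 genes overlapped a measured protein-coding gene.

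Of the inhibitors, CFLAR was high in the 2 lines that were also high in CASP6. Its level was 51.1 in K562, 46.6 in HL60, 19.9 in THP1 and 9.01 in SUDHL4, and 5 of 6 pairs passed, all except K562 against HL60. K562 exceeded SUDHL4 by 5.68-fold (4.97 to 6.52). The difference between HL60 and THP1 was 1.18 on the log2 scale with the deposited scaling, 0.97 with the median ratio and 0.67 with the housekeeping list, so that this call depended on the scaling.

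XIAP, the direct caspase blocker, varied over a narrow range. It was at 29.6 in K562, 22.3 in SUDHL4, 17.7 in HL60 and 10.9 in THP1. Only K562 against THP1 passed the call, at 2.72-fold (2.41 to 3.07), although HL60 against K562 passed it too with the housekeeping list, at -1.07 on the log2 scale. SUDHL4 lay above THP1 by 0.97 on the log2 scale, just short of it.

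BIRC3 had the widest spread of the 8 genes. It was at 62.1 in SUDHL4 and 11.5 in HL60, against 0.596 in THP1 and 0.296 in K562, from 19 and 10 reads. SUDHL4 exceeded K562 by 220-fold (119 to 459). The low pair could not be told apart in counting (THP1 over K562 2.06-fold, 0.910 to 4.95), and the other 5 pairs passed the call. BIRC2 encodes the related ubiquitin ligase cIAP1 and is the next measured protein-coding gene on chromosome 11. BIRC2 had another order, with 49.7 in K562, 27.0 in THP1, 26.9 in SUDHL4 and 15.4 in HL60.

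The 8 genes leaned towards K562 in 2 of its pairs: their median log2 difference was 1.34 for K562 over THP1 and 1.03 for K562 over SUDHL4, beside 0.23 and 0.11 over all genes that entered. Between K562 and THP1, 5 of the 7 genes that entered were called, all higher in K562, where 46.9% of 10995 genes were called in either direction and 25.6% with K562 higher. Between K562 and SUDHL4, 5 of 8 were called, 4 higher in K562 and BIRC3 lower, beside 42.6% of genes (23.9% higher in K562 and 18.6% lower). Between HL60 and SUDHL4 it was 5 of 8, with CASP6, CASP10 and CFLAR higher in HL60 and CASP9 and BIRC3 lower, beside 38.3% (20.4% higher in HL60 and 17.9% lower). The counts were 3 of 8 between HL60 and THP1 (CASP6, BIRC3 and CFLAR, all higher in HL60) beside 37.5% in either direction and 18.7% higher in HL60. They were 2 of 8 between HL60 and K562 (BIRC3 higher and CASP9 lower in HL60) beside 40.4% (19.1% higher in HL60 and 21.3% lower). Between SUDHL4 and THP1 2 of 7 were called, BIRC3 higher and CFLAR lower in SUDHL4, beside 46.2% (22.3% higher in SUDHL4 and 23.8% lower). CASP10 did not enter this pair, with 4.75 in THP1, although its log2 difference was -2.35. It was called lower in SUDHL4 with the median ratio (-2.48) and with the housekeeping list (-2.50). The median over the 8 genes was 0.79 for HL60 over THP1, 0.29 for SUDHL4 over THP1, 0.16 for HL60 over SUDHL4 and -0.22 for HL60 over K562. These counts and medians describe 8 genes and were not tested against other genes.

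CFLAR, CASP10 and CASP8 lie side by side on the plus strand of chromosome 2. In GENCODE 29 (GRCh38) CFLAR spans chr2:201116104-201176687, CASP10 chr2:201182881-201229406 and CASP8 chr2:201233443-201287711. NDUFB3 before and TRAK2 after them are the nearest measured protein-coding genes. The first 2 of the 3 genes shared an order of lines, K562, HL60, THP1, SUDHL4, and CASP8 did not. The flanking genes varied less than CFLAR and CASP10, NDUFB3, a subunit of respiratory complex I, between 94.6 in HL60 and 65.3 in THP1, and TRAK2, a mitochondrial transport adaptor, between 38.1 in HL60 and 21.0 in K562. Over the 10 libraries, log2 levels of CASP10 and CFLAR had a Pearson correlation of 0.96, a description over points that are built from only 4 lines. The other genes lie apart: CASP2 at chr7:143288215-143307696 on the plus strand, CASP6 at chr4:109688622-109703583 on the minus strand, CASP9 at chr1:15490832-15526534 on the minus strand, XIAP at chrX:123859724-123913979 on the plus strand and BIRC3 at chr11:102317450-102339403 on the plus strand.

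**Figure D2:**
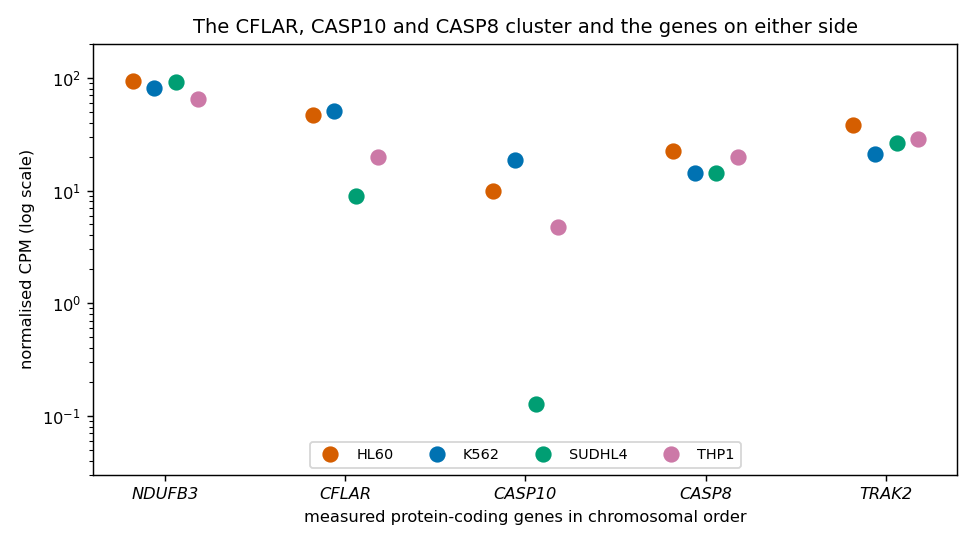
Levels in the pure lines of the neighbours CFLAR, CASP10 and CASP8 on chromosome 2 and of NDUFB3 and TRAK2, in order along the chromosome (normalised CPM, logarithmic axis). NDUFB3 and TRAK2 are the nearest measured protein-coding genes on either side. Each point is 1 library. CASP10 in SUDHL4, at 0.129, lies far below every other point.

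Ratios of reads within a library do not depend on the scaling between libraries. The ratio of CFLAR, the inhibitor at the death receptor, to CASP8, its initiator, was 3.56 (3.22 to 3.93) in K562, 2.06 in HL60, 1.00 in THP1 and 0.625 (0.531 to 0.735) in SUDHL4. The ratio of CASP10 to CASP8 was 1.30 in K562, 0.439 in HL60, 0.238 in THP1 and 0.00765 in SUDHL4. K562 was thus highest and SUDHL4 lowest in both ratios of the receptor route, and the intervals of each ratio did not overlap between lines. The ratio of CASP6 to CASP8 was also highest in K562, at 1.37, and was 0.695 in HL60, 0.367 in SUDHL4 and 0.192 in THP1.

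In the ratios to CASP9, the caspase of the mitochondrial route, the order of lines was another. XIAP to CASP9 was 3.27 in HL60, 1.68 in SUDHL4, 0.947 in THP1 and 0.667 in K562. CASP2 to CASP9 was 10.3 in HL60 and 1.07 in K562 at the ends. The ratio of the inhibitors BIRC3 to XIAP had a further order, with 2.78 in SUDHL4, 0.653 in HL60, 0.0534 in THP1 and 0.00955 in K562. Gene length differs between the members of each ratio, so a ratio of 1 has no meaning of its own and only its change between libraries can be read.

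**Figure D3:**
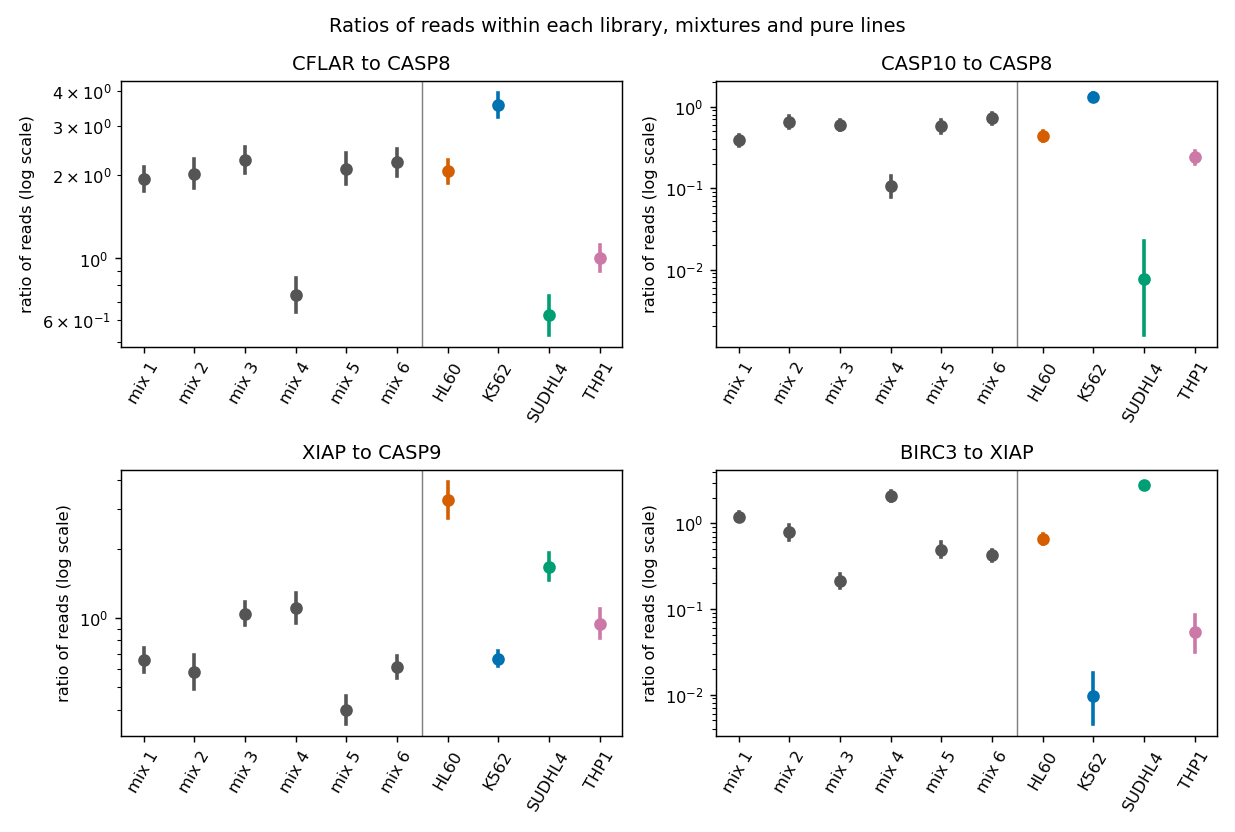
Ratios of reads of 2 genes within a library, 1 panel per ratio, with the 6 mixtures on the left and the 4 pure lines on the right (logarithmic axis). Points are single libraries and error bars exact 95% intervals. CFLAR to CASP8 is 3.56 in K562 and 0.625 in SUDHL4, and XIAP to CASP9 in mixture 5, at 0.398, lies below all pure lines.

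The lines also differed in the genes around these 8. Of a list of 45 other caspases, death ligands and receptors, adaptors, inhibitors, antagonists of inhibitors and caspase substrates, 41 were measured, 36 reached 5 normalised CPM in a pure line and 27 passed the 2-fold call in at least 1 pair of lines. Over all genes, 9016 of the 11717 that reached that level (76.9%) passed in at least 1 pair, so the list was near the background. The counts of the list's groups below are out of the genes that reached that level and are to be read against that share. The groups are small and were not tested. By pair, 18 of 34 that entered passed between SUDHL4 and THP1, 17 of 34 between K562 and THP1, 15 of 31 between HL60 and K562, 14 of 32 between HL60 and SUDHL4, 10 of 35 between HL60 and THP1 and 7 of 27 between K562 and SUDHL4, against the shares of all genes given above. The median log2 difference over the list lay between -0.28, for SUDHL4 over THP1, and 0.23, for HL60 over THP1, beside 0.11 and 0.21 over all genes.

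Among the other caspases, CASP1 and CASP4 had at most 1 read in K562 and in SUDHL4. CASP1, the caspase that matures interleukin-1 beta, was at 42.3 in THP1 and 29.4 in HL60 and had 0 reads in K562 and SUDHL4, so that THP1 was at least 384-fold higher than SUDHL4, taken at its limit of 3 reads. CASP4, which senses bacterial lipopolysaccharide in the cytosol, was at 65.4 in THP1 and 57.7 in HL60, with 1 read in each of the other lines.

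Of the death ligands and receptors 8 were measured, and the 6 that reached the minimum level in a pure line all passed. FAS, the receptor of the Fas ligand, was at 11.95 in HL60, 1.27 in THP1 and 0.459 in SUDHL4, with 0 reads in K562. TNFRSF1A, the main receptor of tumour necrosis factor, was at 122 in HL60, 99.1 in THP1 and 53.7 in K562, against 0.569 in SUDHL4. SUDHL4 was highest in TNFRSF10A and TNFRSF10B, which pass on the TRAIL signal, at 21.4 and 44.5, and in TNFRSF10D, a decoy receptor of TRAIL, at 107 against at most 2.15 in the other lines. TNFSF10, which encodes TRAIL itself, was at 13.7 in HL60 and 9.21 in THP1 and below 1 in K562 and SUDHL4. SUDHL4 thus had few reads of FAS, TNFRSF1A, CASP10 and TNFSF10 while it was the highest line for 3 TRAIL receptors.

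The adaptors passed in 4 of 8. RIPK1, the kinase of the receptor complex, was at 78.0 in K562 and 18.5 in THP1, while FADD, the adaptor that binds CASP8, ranged only between 39.6 in HL60 and 23.7 in SUDHL4. Of the other inhibitors 7 were measured, and 3 of the 5 that reached 5 normalised CPM passed. These were BIRC2, TRAF2 and NAIP, the last at 7.20 in THP1 and with at most 5 reads elsewhere. Of the antagonists of inhibitors 4 were measured, and the 3 that reached 5 normalised CPM all passed. XAF1, a binding partner of XIAP, had 359 reads in THP1 and 35 in HL60 with 0 in K562 and SUDHL4. DIABLO was at 11.6 in K562 and 3.80 in THP1. HTRA2 was at 59.5 in HL60 and 25.1 in THP1.

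Of the substrates 8 of 10 passed. GSDMD, the pore protein cut by inflammatory caspases, was at 49.9 in THP1 and at most 2.44 in the other lines. THP1 was thus the line with the most CASP1, CASP4 and GSDMD transcript. PARP1, a DNA repair enzyme cleaved by executioners, was at 1092 in SUDHL4 and 426 in HL60, and SPTAN1, a spectrin chain, at 655 in SUDHL4 and 49.4 in K562.

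For the mixtures, line shares came from a non-negative least squares fit to 100 signature genes per line. The 8 genes, the list of genes around them and the markers were left out of the signatures, while other genes named here could enter. A level was predicted from the shares and the pure lines. Mixture 1 was nearly even, with 28.9% THP1, 26.0% HL60, 22.6% K562 and 22.5% SUDHL4. HL60 led mixture 2 with 48.9%, K562 mixture 3 with 39.4%, SUDHL4 mixture 4 with 58.2%, and K562 mixtures 5 and 6 with 53.3% and 52.9%. The shares are of RNA, so fewer cells of a line and less RNA per cell cannot be told apart. Of the 48 levels (8 genes, 6 mixtures), 43 lay within 1.5-fold of the prediction or were too low to enter, and 5 were off, all lower than predicted and all of CASP2 or XIAP.

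XIAP was observed at 11.96, 8.85, 20.3, 14.6, 11.6 and 16.3 normalised CPM in mixtures 1 to 6, against predictions of 18.8, 18.0, 18.1, 17.6, 21.7 and 22.0. It was lower than predicted in 5 of the 6 mixtures, and past 1.5-fold in mixtures 1, 2 and 5, by log2 differences of -0.61, -0.95 and -0.84. Mixture 3 was the exception, at 0.16.

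CASP2 was observed at 38.1, 24.3, 41.6, 42.9, 28.8 and 36.7 in mixtures 1 to 6, against predictions of 49.7, 48.3, 41.8, 55.2, 45.5 and 46.5. It was past 1.5-fold in mixtures 2 and 5, by -0.96 and -0.64, and at its prediction in mixture 3. Mixtures 2 and 5 were thus past the call for both genes, mixture 1 for XIAP alone and mixtures 3, 4 and 6 for neither.

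The share of all genes off in either direction was 0.777% in mixture 1, 10.8% in mixture 2, 0.316% in mixture 3, 1.5% in mixture 4, 6.74% in mixture 5 and 2.81% in mixture 6. Those observed lower than predicted made up 0.233% in mixture 1, 6.94% in mixture 2, 0.079% in mixture 3, 0.53% in mixture 4, 3.57% in mixture 5 and 1.28% in mixture 6. Mixtures 2 and 5, with 4 of the 5 values off, were also the mixtures in which the most genes were off.

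On a common scale, a mixture of any shares has a level between those of its lowest and highest parts. CASP2 lay below the lowest in mixtures 2 and 5, whose intervals of 22.4 to 26.3 and 26.7 to 30.9 lie wholly under that of THP1, the lowest pure line, at 36.1 to 40.4. XIAP in mixture 2 was at 8.85 against 10.9 in THP1, with overlapping intervals. Counting any amount, 7 of 48 levels lay below all pure lines and none above: CASP2 in mixtures 1, 2, 5 and 6, CASP8 in mixtures 5 and 6 and XIAP in mixture 2. Among all genes the share below the lowest pure level was 1.32% in mixture 1, 8.03% in mixture 2, 2.69% in mixture 3, 2.9% in mixture 4, 5.9% in mixture 5 and 3.49% in mixture 6. The CASP2 values of mixtures 1, 2, 5 and 6 stayed below all pure lines under the other 3 scalings. The count was 6 with total reads, where CASP8 in mixture 6 was no longer below, and 11 with the median ratio and 11 with the housekeeping list.

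Within libraries, the ratio of XIAP to CASP9 also fell below the pure lines in part of the mixtures. The XIAP level did so in mixture 2 with the deposited scaling, and in mixtures 1, 2 and 5 with the median ratio or the housekeeping list. The ratio was 0.659, 0.584, 1.04, 1.11, 0.398 and 0.611 in mixtures 1 to 6, against 0.667 in K562, the lowest pure line. Mixtures 1, 2, 5 and 6 lay below it, but only the interval of mixture 5 (0.347 to 0.456) was apart from that of K562 (0.617 to 0.722). CFLAR to CASP8 in contrast stayed inside the range of the pure lines in all 6, between 0.739 in mixture 4 and 2.26 in mixture 3.

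**Figure D4:**
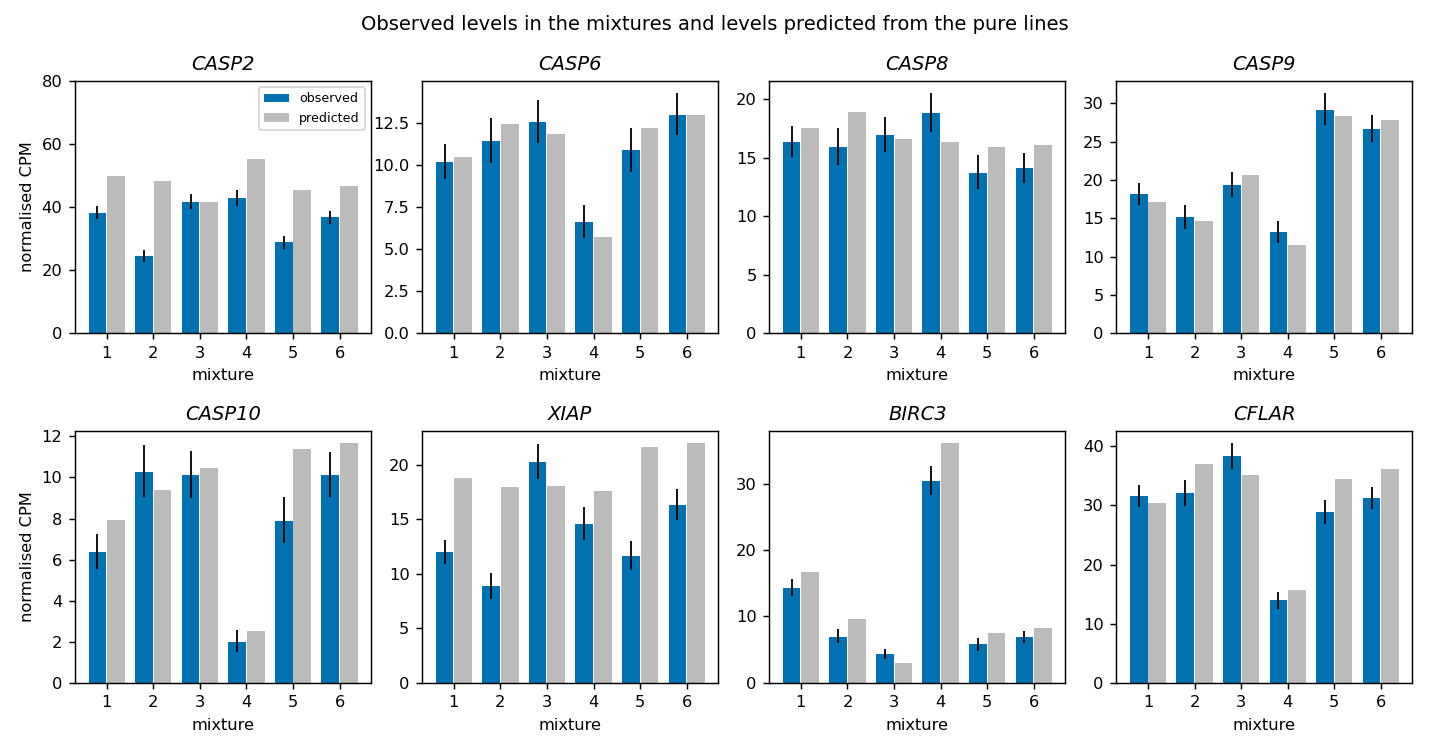
Observed and predicted level of each gene in the 6 mixtures (normalised CPM, 1 panel per gene, linear axes). Blue bars are observed levels, with exact 95% Poisson intervals as error bars, and grey bars are predictions from the estimated shares. XIAP in mixture 2, at 8.85 against a prediction of 18.0, and CASP2 in mixture 2, at 24.3 against 48.3, have the largest log2 differences.

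No level of the other 6 genes was off its prediction by the 1.5-fold call. BIRC3 was at 14.3, 6.95, 4.31, 30.5, 5.77 and 6.92 in mixtures 1 to 6, against predictions of 16.6, 9.60, 2.94, 36.2, 7.55 and 8.19. The highest value was that of mixture 4, which had the largest SUDHL4 share, and the lowest that of mixture 3, where that share was estimated at 0%. CASP10 was at 6.37, 10.3, 10.1, 2.00, 7.89 and 10.1 in mixtures 1 to 6, with its largest gap in mixture 5 (-0.48).

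CFLAR was at 31.6, 32.1, 38.4, 13.9, 28.9 and 31.2, within 0.25 of its prediction on the log2 scale in every mixture. CASP9 was at 18.2, 15.1, 19.4, 13.2, 29.2 and 26.7 in mixtures 1 to 6, highest in the pair with most K562. CASP6 lay between 6.59 in mixture 4 and 12.99 in mixture 6, and CASP8 between 13.7 in mixture 5 and 18.8 in mixture 4.

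Deviations in mixtures 2 and 5 moved with transcript length over all genes, and also with base composition, given further below. With genes split into 6 equal groups by the length of their longest GENCODE transcript, the median log2 deviation in mixture 2 was 0.34 in the shortest group and -0.35 in the longest, where 25.1% of genes were off and lower. In mixture 5 these medians were 0.22 and -0.28, with 13.6% of the longest group off and lower, and in mixture 3 they were -0.05 and 0.11. In mixtures 1, 4 and 6 the shortest group had medians of 0.08, 0.17 and 0.14 and the longest -0.12, -0.06 and -0.16. XIAP, with a longest transcript of 8591 bases, falls in the longest group. CASP2, with 5769 bases, falls in the fifth, whose medians were -0.20 in mixture 2 and -0.15 in mixture 5.

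CFLAR also falls in the longest group, with 14672 bases. It was lower than predicted but short of the 1.5-fold call, at -0.20 in mixture 2 and -0.25 in mixture 5. The medians of that group were -0.35 and -0.28. In base composition, XIAP has a GC share of 39.0% and falls in the lowest of 6 groups, whose medians were -0.18 in mixture 2 and -0.19 in mixture 5. In the highest GC group the medians were 0.26 and 0.25 in these mixtures, with 12.1% and 11.9% of genes off and higher. CASP2, at 43.6%, falls in the third group, whose medians were -0.05 and -0.08 in these mixtures. Which kit made which library is not stated in the labels, and the part of length, base composition and kit in the low XIAP and CASP2 values was not tested.

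**Figure D5:**
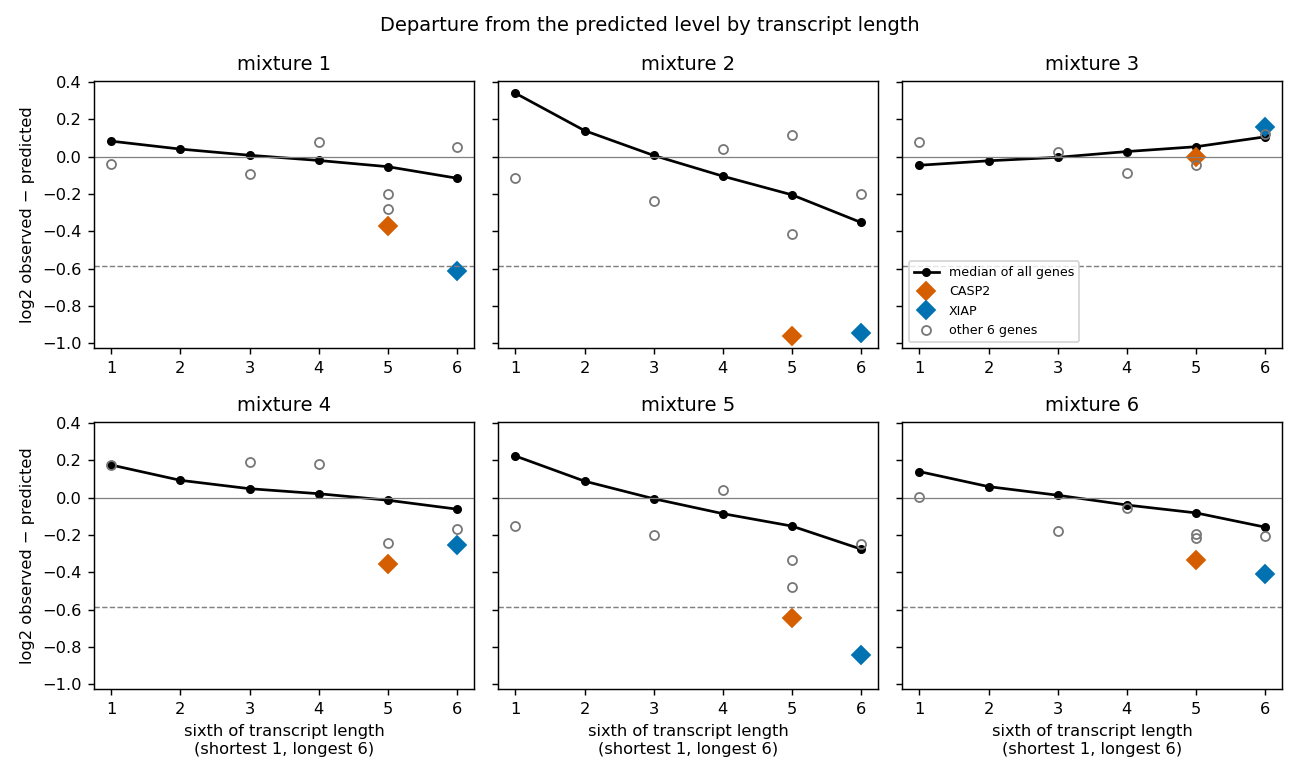
Median log2 difference of observed and predicted level for 6 groups of genes by transcript length, shortest on the left, 1 panel per mixture, with CASP2 and XIAP as diamonds and the other 6 genes as open circles at their own group, and a dashed line at 1.5-fold lower than predicted. The medians fall with length in every mixture except mixture 3, by the most in mixtures 2 and 5. CASP2 lies below the median of its group in all 6 mixtures and XIAP in all except mixture 3.

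Genes with the most similar pattern over the 10 libraries were sought among 11781 genes with a symbol and at least 5 normalised CPM in a library, by Pearson's r of log2(value + 1). For BIRC3 they were ATP8A1, a phospholipid flippase, at 0.994, and SLC16A6, a member of the monocarboxylate transporter family, at 0.987. For CASP6 they were MTIF2, a mitochondrial translation initiation factor, at 0.995, and HMGCS1, an enzyme of the mevalonate pathway, at 0.992. For CASP10 they were LINC00667 at 0.991 and SLC39A7, a zinc transporter, at 0.990.

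For CFLAR they were DNAJC11 at 0.992 and MKS1, a protein of the ciliary transition zone, at 0.989. For CASP9 they were CBS, the enzyme that makes cystathionine, at 0.985, and MOCOS, the molybdenum cofactor sulfurase, at 0.984. XIAP was most like STRN at 0.982 and RBBP5, a subunit of histone methyltransferase complexes, at 0.976.

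CASP2 was most like TRPM7, a channel with a kinase domain, at 0.967, and CHD6, a chromatin remodeller, at 0.965. CHD6 was lowest in mixture 2, at 18.7, and in mixture 5, at 21.1, against 35.7 in THP1, its lowest pure line. It was picked for its likeness to CASP2 over libraries that include these mixtures, so this is no separate observation. CASP8 had the least close matches, TBRG1 at 0.943 and ZNF337 at 0.940. Among the 8 genes themselves, the highest values after CASP10 with CFLAR were CASP6 with CFLAR at 0.858, CASP6 with CASP10 at 0.788 and CASP2 with XIAP at 0.756, and the lowest were CASP8 with CASP9 at -0.834 and CASP10 with BIRC3 at -0.738. The libraries share the 4 lines, so these values describe the shape of the levels and are given without p-values.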

How the data were processed

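Per the submitters' processing notes, the tools were HISAT2 and featureCounts (Cell Ranger ARC 2.0.0 is listed too) and the build was hg19. No source used here gives the annotation or the rescaling. The values deposited by the authors are a signal on a CPM scale for 20591 genes. Dividing each deposited column by its step gave a whole number of reads plus 0.5 for 100% of values above 0, within 0.01. The planned rules assumed plain CPM and were kept. From those reads, exact 95% Poisson intervals of levels and exact conditional intervals of ratios were computed with Python 3.11.15, pandas 2.3.3 and SciPy 1.17.1. Every group held 1 library, and each library took its group from its title. No statistical test was possible. The steps were checked on simulated counts.

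Transcript lengths and coordinates came from GENCODE 29 (GRCh38), with 19923 genes (96.8%) matched by Ensembl ID. The members and lists were chosen with earlier results of these data known, and genes named in the text are the 8 members, list genes past 2-fold in a pair or set beside these, markers, neighbours and the 2 most similar genes per member. FADD, BIRC6, CASP8AP2 and TRADD did not pass: FADD is named for its role, the others after their values in the mixtures were seen. Some list members are not reported here. Alternatives were other scalings, pseudocounts, minimum levels, folds, signatures and measures of likeness. Samples other than these 10 libraries were not analysed here.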

Additional observations from a re-analysis of the deposited data

How the results depend on the processing

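Of the results that answer a comparison, 24 recomputed values stayed within 1.5 times of the value reported and 6 did not; none reversed. The 22 differences past 2-fold among the 8 genes came to 11 at 4-fold, and the 81 of the wider list came to 122 at 1.5-fold and 39 at 4-fold, by construction of the threshold. None of the 5 mixture values off the prediction reached 2-fold, so that count was 0, and 4 were off when every gene at 5 or more made the prediction, without XIAP in mixture 1. Of the 16 most similar genes, 3 were kept with Spearman's rho and 1 over the 4 pure lines, where 4 points leave many genes near a perfect correlation. The housekeeping scaling shifted the median difference of all genes by -0.54 between HL60 and THP1, by -0.54 between HL60 and SUDHL4 and by -0.39 between HL60 and K562. Changes in call relative to the deposited scaling numbered 2 of 48 with total reads, 3 with the median ratio and 6 with the housekeeping list, among them CASP6 between HL60 and SUDHL4, lost at 0.93 with the housekeeping list. The comparison with the lowest pure level, and its scalings, were added after seeing the data. No paired analysis was possible because each group holds 1 library and no test was made. Few reads limit BIRC3 in K562 and THP1 and CASP10 in SUDHL4.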

Other observations

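Of 246 values of the 41 measured genes of the wider list in the mixtures, 189 entered, of which 7 were off and lower than predicted and 2 off and higher, in 6 genes. Over all genes and the 6 mixtures, 2.12% of 61556 values were off and lower and 1.73% off and higher, and of the list's 7 low values 4 were in mixture 2, where 6.94% of all genes were low. BIRC6, a very large relative of XIAP, was at 37.6 in mixture 2, 50.3 in mixture 5 and 49.5 in mixture 6, against predictions of 74.1, 76.1 and 76.9. SPTAN1 was low in mixture 2 at 126 and in mixture 6 at 102, against predictions of 195 and 162, and ROCK1 and CASP8AP2 were low in mixture 2. The values off and higher were TRADD, an adaptor of tumour necrosis factor receptor 1, in mixture 5, at 9.61 against a prediction of 5.76, and PIDD1, the scaffold of the CASP2 complex, in mixture 1, at 17.0 against 10.4.

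FAS had 0 reads in mixture 5, where 13.4 reads were predicted, mainly from THP1. It followed its prediction in the other 5 mixtures, for example with 5.72 normalised CPM in mixture 2 against a prediction of 5.91. In mixture 5, 22 of 14973 genes predicted at 10 reads or more had 0 reads, 25 of 15613 in mixture 1 and between 1 and 8 in the other 4. These values were looked at after the data had been seen.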
